A study of Mus musculus with 7 samples.

Results

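The mouse mitochondrial genome was described here through its 37 genes in the deposited expression table, chosen as the rows whose mouse symbol starts with mt- among 48795 genes. They comprise 2 ribosomal RNA genes, 13 protein-coding genes and 22 transfer RNA genes. The libraries were made from splenic B lineage cells of wild-type female C57BL/6 mice aged 8 to 12 weeks, taken on day 10 after immunization with sheep red blood cells. 3 libraries held memory B cells (MBCs), sorted as B220+ CD138Neg IgDneg CD38+ CD273+ cells, and 4 held plasma cells (PCs), sorted as B220lo CD138+ IgD- cells, and the question was how the transcriptomes of these outputs of the germinal center differ. No allele, transgene or second agent distinguished the groups. Both populations passed a CD43 bead column before the sort, and total RNA was made into cDNA with a Nugen kit and sequenced on an Illumina HiSeq instrument. The labels do not say whether the libraries of a group came from separate mice, so every p-value below measures the spread between these libraries, which may be partly technical.

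The mitochondrial genome is a small circle read from both strands as long transcripts that cover many genes. Transfer RNAs lie between most of the ribosomal and coding genes, and their excision releases the neighbouring RNAs. The coding genes make core subunits of respiratory complexes I, III, IV and V, while all other proteins of these complexes, and of the ribosome that translates them, come from the nucleus.

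3 arrangements of this genome bear on the values below, and the sequences are shown for that reason in build GRCm38, read from the GENCODE M21 transcripts in the direction of the gene. The first is overlap of neighbours. mt-Atp8 (chrM:7766-7969, plus strand) and mt-Atp6 (chrM:7927-8607, plus strand) share 43 bases, given in capitals in the whole of mt-Atp8. mt-Nd4l ends 7 bases inside mt-Nd4, and mt-Nd5 overlaps by 14 bases the end of mt-Nd6, which is read from the other strand. The last 60 bases of mt-Nd4l (chrM:10114-10173) and of mt-Nd5 (chrM:13506-13565) are shown with these shared bases in capitals.
mt-Atp8: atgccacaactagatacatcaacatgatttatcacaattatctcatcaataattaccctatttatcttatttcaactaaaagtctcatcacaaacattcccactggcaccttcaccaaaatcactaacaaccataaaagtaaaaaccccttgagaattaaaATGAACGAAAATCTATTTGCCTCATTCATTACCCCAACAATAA
mt-Nd4l: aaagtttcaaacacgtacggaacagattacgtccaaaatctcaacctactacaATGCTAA
mt-Nd5: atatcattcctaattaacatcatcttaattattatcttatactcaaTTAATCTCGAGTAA

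The second is the length of the transfer RNA genes. The shortest, mt-Ts2 (chrM:11613-11671, plus strand), has 59 bases, and the longest, mt-Tl1 (chrM:2676-2750, plus strand), has 75. Both are shown whole.
mt-Ts2: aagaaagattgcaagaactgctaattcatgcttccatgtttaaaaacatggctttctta
mt-Tl1: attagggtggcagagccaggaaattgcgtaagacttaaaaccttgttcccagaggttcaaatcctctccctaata

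The third is near-identical sequence in the nucleus. Of the nuclear genes, 11 matched a mitochondrial transcript at 95% identity or more over at least 100 bases, and together they covered 9 of the 13 coding genes. 5 of them were identical over their whole length, Gm10222 to mt-Nd4l over 294 bases, Gm10925 to mt-Atp6 over 678, Gm28437 to mt-Co3 over 783, Gm28661 to mt-Co2 over 681 and Gm28439 to mt-Nd4 over 876. Gm28438 differed from mt-Nd3 in 1 of 345 aligned bases, the substitution T3C counted from the first base of mt-Nd3, and Gm29216 differed from mt-Co1 in 1 of 483, the substitution A1066T counted from the first base of mt-Co1. All 7 of these copies are annotated as pseudogenes on chromosome 1. The windows around both differences are shown with the differing base in capitals, mt-Nd3 at chrM:9459-9491 and mt-Co1 at chrM:6390-6423.
mt-Nd3: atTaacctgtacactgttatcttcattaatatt
Gm28438: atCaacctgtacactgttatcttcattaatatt
mt-Co1: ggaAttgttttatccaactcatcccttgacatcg
Gm29216: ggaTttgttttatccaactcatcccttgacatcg

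Values were in TPM, a relative unit corrected for transcript length that adds to the same total in every library, and the table gives no read totals, so the depth is unknown and no counting error could be given. Immunoglobulin genes took 1.65% to 3.16% of TPM in MBCs and 49.4% to 55.9% in PCs, and 1 nuclear ribosomal RNA gene, CT010467.1, took 7.29%, 7.80% and 17.04% in the MBC libraries and 12.3% to 15.97% in PCs. The PC markers Sdc1, Prdm1, Xbp1, Irf4 and Jchain were higher in PCs in 5 of 5 cases, and of the B cell markers Ms4a1 and Pax5 were lower, while Cd79a was not called (log2 fold change -0.36, limma adjusted p = 0.605), at 374 scaled TPM in MBC replicate 3 and 458 to 510 in PCs. MBC replicate 3 stood apart. Its log2 values correlated with the 4 PC libraries at r of 0.70 to 0.78 across genes and with the other MBC libraries at 0.69 and 0.68. MBC replicates 1 and 2 correlated no better with each other, at 0.675, and with PCs at 0.54 to 0.56. The sort marker Cd38 was listed at 6.77 scaled TPM in MBC replicate 3, against 130 and 186 in the other MBC libraries and 9.89 to 21.3 in PCs. MBC replicate 3 is also the only MBC library whose title carries the second of 2 code prefixes, shared with PC replicate 4. The prefix and the library thus cannot be told apart among the MBCs. Of the 6 erythroid markers, the summed level was 4.17, 4524 and 56.3 scaled TPM in the MBC libraries and 0.32 to 122 in PCs, with Hbb-bs at 1759 and Hba-a2 at 1310 in MBC replicate 2. The 4 platelet markers summed to at most 4.58, the 6 T cell markers to at most 1.08 in MBCs and 20.2 in PCs, and the 6 myeloid markers to at most 28.4, with S100a9 at 0 throughout. The number of genes listed above 0 was 12983, 11527 and 18061 in the MBC libraries and 14463 to 16768 in PCs, so that the MBC libraries with the most mitochondrial RNA listed the fewest genes. The part of the admixtures and of the number of genes in the mitochondrial values was not tested.

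Mitochondrial RNA took a much larger share of all TPM in MBCs than in PCs. The 37 genes together held 33.2%, 33.5% and 19.7% of TPM in the MBC libraries and 8.73%, 8.82%, 9.80% and 8.10% in the PC libraries. Every MBC library lay above every PC library, at 28.8% ± 7.89 (SD, n = 3) against 8.86% ± 0.704 (SD, n = 4). Nearly all of it was ribosomal RNA, which held 29.8%, 29.7% and 18.7% in MBCs and 7.78%, 8.15%, 8.70% and 7.47% in PCs. The coding genes held 3.37%, 3.82% and 1.06% in MBCs and 0.949%, 0.673%, 1.10% and 0.626% in PCs, and here MBC replicate 3 fell inside the PC range.

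Because a share is relative to everything else in the library, and immunoglobulin transcripts filled about as much of the PC libraries as all other genes, the shares were computed again without the 429 immunoglobulin genes. The mitochondrial share then was 34.3%, 34.5% and 20.05% in MBCs and 19.8%, 18.8%, 20.1% and 15.99% in PCs. The groups now overlapped, since MBC replicate 3 lay just below PC replicate 3. The ribosomal part was 30.8%, 30.6% and 19.0% in MBCs and 17.6%, 17.4%, 17.8% and 14.8% in PCs, still without overlap. The coding part was 3.48%, 3.93% and 1.08% in MBCs and 2.15%, 1.44%, 2.26% and 1.24% in PCs. MBC replicate 3 had the lowest coding share of all 7 libraries and the other MBC libraries the highest.

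Taking out the nuclear ribosomal RNA genes too moved the groups closer together. The share of the 37 genes was then 37.1%, 37.5% and 24.3% in MBCs and 27.5%, 25.9%, 27.0% and 23.4% in PCs, and the ribosomal share also overlapped, since MBC replicate 3 at 22.9% fell within the 21.5% to 24.5% of PCs. The ratio of group means, MBC over PC, fell from 3.25 over all genes to 1.59 without immunoglobulin genes and 1.27 without either class. Within the first title prefix, the share without immunoglobulin genes was 34.3% and 34.5% in MBC replicates 1 and 2 and 18.8% to 20.1% in PC replicates 1 to 3, and within the second it was 20.05% in MBC replicate 3 and 15.99% in PC replicate 4. The titles also carry 4 full codes, of which 3 occur in both groups, and their meaning is not given. In each of the 3 pairs that share a code, the MBC library had the larger share without immunoglobulin genes, at 34.3% against 19.8%, 34.5% against 20.1% and 20.05% against 15.99%. The coding share was larger in the MBC library of 2 pairs and smaller in the third, at 1.08% against 1.24%. In these bulk libraries, fewer cells of a type and less RNA per cell cannot be told apart.

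**Figure D1:**
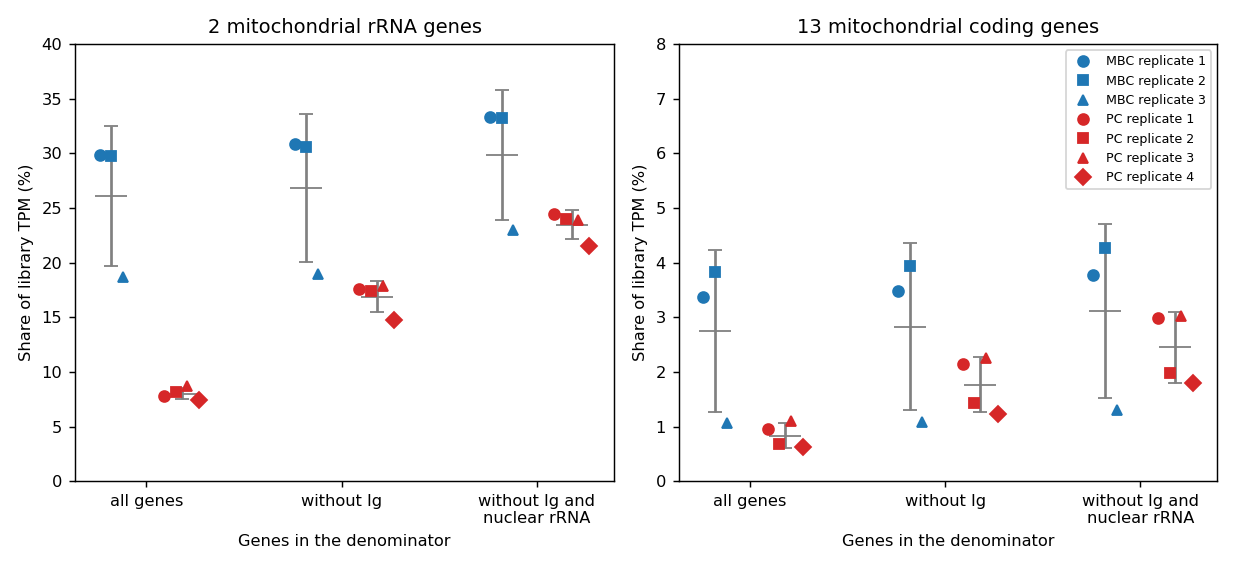
Share of library TPM (%, vertical axis) held by the mitochondrial ribosomal RNA genes (left) and coding genes (right) in 3 MBC (blue) and 4 PC (red) libraries, for 3 choices of the genes in the denominator; horizontal bars are group means and whiskers SD. The PC ribosomal share rises from 7.47–8.70% over all genes to 21.5–24.5% without immunoglobulin and nuclear ribosomal RNA genes, and MBC replicate 3 (blue triangle) sits apart from the other MBC libraries in both panels.

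Within mitochondrial RNA the division between ribosomal and coding RNA overlapped between groups. Ribosomal RNA was 89.8%, 88.6% and 94.6% of mitochondrial TPM in MBCs and 89.1%, 92.4%, 88.8% and 92.3% in PCs, and the coding genes made up the rest, from 5.38% in MBC replicate 3 to 11.4% in MBC replicate 2. mt-Rnr1 (chrM:70-1024), the small ribosomal subunit RNA, and mt-Rnr2 (chrM:1094-2675), the large subunit RNA, led the table. mt-Rnr2 ranked 1 and mt-Rnr1 ranked 2 among all genes in MBC replicates 1 and 2. In MBC replicate 3 they ranked 2 and 3, and in PCs mt-Rnr2 ranked 3 to 5 and mt-Rnr1 ranked 6. Both are copied from the same stretch of the plus strand, and the ratio of mt-Rnr2 to mt-Rnr1 was 1.87, 2.16 and 3.45 in MBCs and 2.59, 3.14, 2.91 and 3.27 in PCs. The highest ratio and both lowest ones were thus in MBC libraries, and the mean log2 ratio did not differ between groups beyond this spread (difference 0.30, exact two-sided permutation test over 35 assignments, p = 0.286, adjusted p = 0.571 over 4 ratios).

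Among the coding genes as listed, without nuclear copies, the order of levels per length was stable at the top and the bottom. mt-Co1, the catalytic subunit of complex IV, ranked 1 and mt-Cytb, the complex III subunit that carries the quinone sites, ranked 2 in all 7 libraries. mt-Co1 made up 27.0% to 37.7% of mitochondrial coding TPM in MBCs and 28.0% to 37.1% in PCs. mt-Nd2, a complex I subunit, ranked 11 or 12, and mt-Nd3, the shortest complex I subunit gene but for mt-Nd4l, ranked last in 6 of the 7 libraries. The exception was MBC replicate 3, where mt-Nd3 ranked 10 and held 3.72% of coding TPM, against 0.300% to 1.38% in the other 6 libraries. The last rank depended on the copies, since with them merged mt-Nd3 passed mt-Nd2 in PC replicate 4, at 166.8 against 159.9 scaled TPM. mt-Nd6, the only coding gene on the minus strand, held 2.08% to 2.98% in MBCs and 1.73% to 2.51% in PCs. Whether counting used the strand is not given in the sources used here, so its reads could not be told apart from any antisense reads across the same bases.

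The division by complex among the genes as listed also overlapped between groups. The 7 complex I genes held 32.6%, 33.0% and 27.7% of coding TPM in MBCs and 30.2%, 26.8%, 29.9% and 27.7% in PCs. The 3 complex IV genes held 40.4% to 45.9% in MBCs and 40.1% to 46.5% in PCs. The complex V pair mt-Atp6 and mt-Atp8, membrane subunits of ATP synthase, held 7.18%, 10.5% and 12.7% in MBCs and 14.4%, 11.7%, 9.41% and 15.1% in PCs.

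To compare single genes, TPM were scaled in each library by the median ratio over the 9305 genes above 0 in all libraries, which sets the level of the typical gene equal and takes the immunoglobulin load of PCs out of the comparison. On this scale mt-Rnr1 was at 56986, 63422 and 20441 in MBCs and 34046, 29281, 27379.9 and 24370.1 in PCs. mt-Rnr2 was at 106815, 136894 and 70480.0 in MBCs and 88327, 91799.5, 79624 and 79761 in PCs. For both genes MBC replicates 1 and 2 lay above every PC library and MBC replicate 3 lay below every one. On TPM as deposited MBC replicate 3 also lay above every PC library for both genes.

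The same split ran through the coding genes. mt-Co1 was at 6973, 8843 and 1398 scaled TPM in MBCs and 4181, 2899, 5018 and 2503 in PCs. mt-Cytb was at 2656, 3471 and 996 in MBCs and 2215, 1664, 1919.9 and 1492 in PCs. mt-Nd5, a membrane subunit of the proton-pumping arm of complex I, was at 1024, 1375 and 205 in MBCs and 711, 382, 619 and 352 in PCs. On scaled TPM, MBC replicates 1 and 2 were above all PC libraries in 11 of the 15 measured genes. In 14 of the 15 MBC replicate 3 was the lowest of the 7 libraries. The exception was again mt-Nd3, at 123, 77.1 and 193 scaled TPM in MBCs and 145, 138, 154 and 111 in PCs, where MBC replicate 3 was the highest. Both counts depended on the scale, since on TPM as deposited they were 14 and 1. The factors by which TPM were divided were 1.82, 1.48 and 2.05 in MBCs and 0.636 to 0.813 in PCs.

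**Figure D2:**
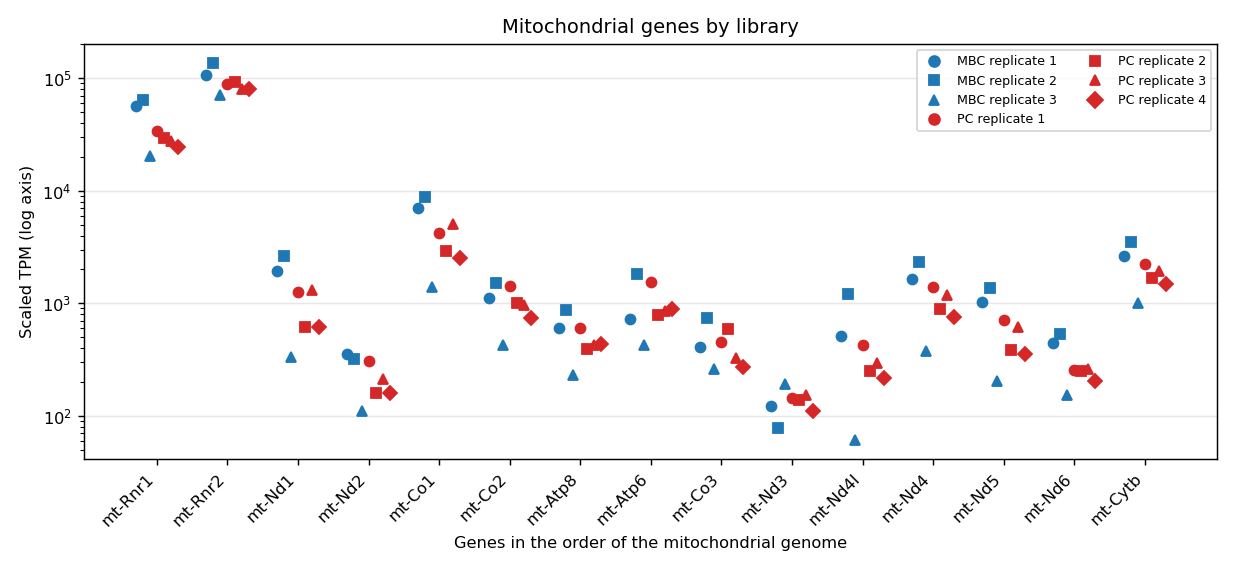
Scaled TPM (log axis) of the 15 mitochondrial genes listed above 0, in genome order, in 3 MBC (blue) and 4 PC (red) libraries, with 1 point per library. MBC replicates 1 and 2 lie above all PC libraries in 11 of 15 genes, and MBC replicate 3 (blue triangle) is lowest in 14 of 15.

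With all 7 libraries, no mitochondrial gene passed the test between PCs and MBCs on scaled TPM. By limma on log2(scaled TPM + 1), 0 of 15 were called in either direction, with a call set at an adjusted p under 0.05 and a log2 difference of 1 or more either way, and 0 had an unadjusted p under 0.05. Of all 11573 genes tested, 6.41% were called higher and 2.14% lower in PCs. The log2 fold changes, PC minus MBC, ran from -0.56 for mt-Rnr1 (SE 0.59) to 0.24 for mt-Atp6 (SE 0.50), with 12 of 15 below 0 and a median of -0.22 beside 0.14 over all genes tested, and limma adjusted p-values ran from 0.567 to 0.913. No mitochondrial gene separated the groups without overlap in either direction on this scale. Every MBC library lay above every PC library in 8.68% of all genes tested, and the share for the opposite direction is not given here.

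The call depended on the scale and on MBC replicate 3. On TPM as deposited, 7 of 15 were called lower in PCs by limma, mt-Rnr1, mt-Nd2, mt-Atp8, mt-Co3, mt-Nd5, mt-Nd6 and mt-Cytb, in a comparison that called 26.1% of all genes lower and 4.08% higher. The median log2 fold change was -1.54 for the mitochondrial genes and -0.91 over all genes, and 7 of 15 lay above every PC library in every MBC library, beside 34.3% of all genes. With the immunoglobulin genes removed before TPM were rescaled, 0 of 15 were called (median -0.51, adjusted p 0.222 to 0.958), while 3.80% of all genes were called lower.

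Without MBC replicate 3, scaled TPM were lower in PCs for mt-Nd4l (log2 fold change -1.45, SE 0.43, limma adjusted p = 0.0449), mt-Nd5 (-1.27, SE 0.38, adjusted p = 0.0480) and mt-Nd6 (-1.01, SE 0.26, adjusted p = 0.0310). All 3 make subunits of complex I, as do 7 of the 13 coding genes. mt-Nd1 of complex I (-1.34) and mt-Co1 of complex IV (-1.16) were lower than mt-Nd6 but were not called. The called genes were 3 of 15 beside 8.20% of all genes called lower and 15.1% called higher in that fit. The median of the 15 moved to -0.75. mt-Rnr1 was at -1.08 (adjusted p = 0.201) and mt-Rnr2 at -0.52 (adjusted p = 0.643) there, and mt-Nd3 was the only gene above 0, at 0.47. Within the 5 libraries of the first title prefix, 0 of 15 were called, with a median of -0.66 and the lowest adjusted p at 0.0778.

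**Figure D3:**
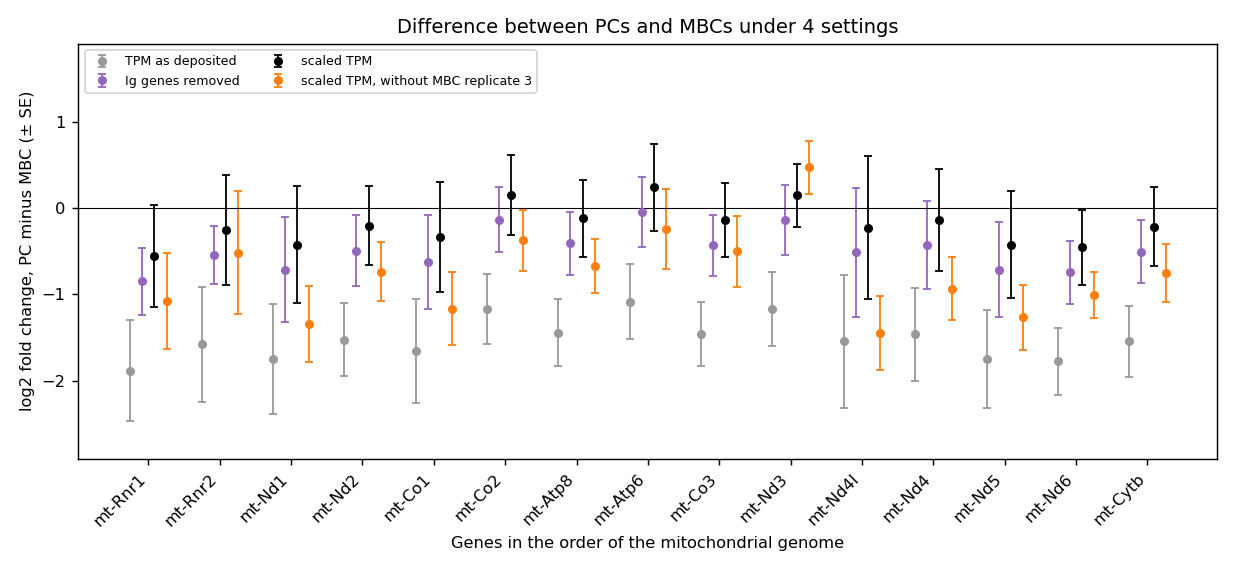
log2 fold change, PC minus MBC, with its SE for the 15 mitochondrial genes under 4 settings. Values are lowest on TPM as deposited, lie around 0 on scaled TPM (-0.56 to 0.24) and move down without MBC replicate 3 for every gene but mt-Nd3.

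None of the 22 transfer RNA genes was listed above 0 in any library. They are 59 to 75 bases long. Among nuclear genes, all 1002 whose longest transcript in GENCODE M21 has at most 75 bases were also at 0 in all 7 libraries, and the shortest nuclear gene listed above 0 had 114 bases. All nuclear genes of that length thus shared the zeros of the mitochondrial transfer RNAs, and no level of these RNAs can be read from the table.

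**Figure D4:**
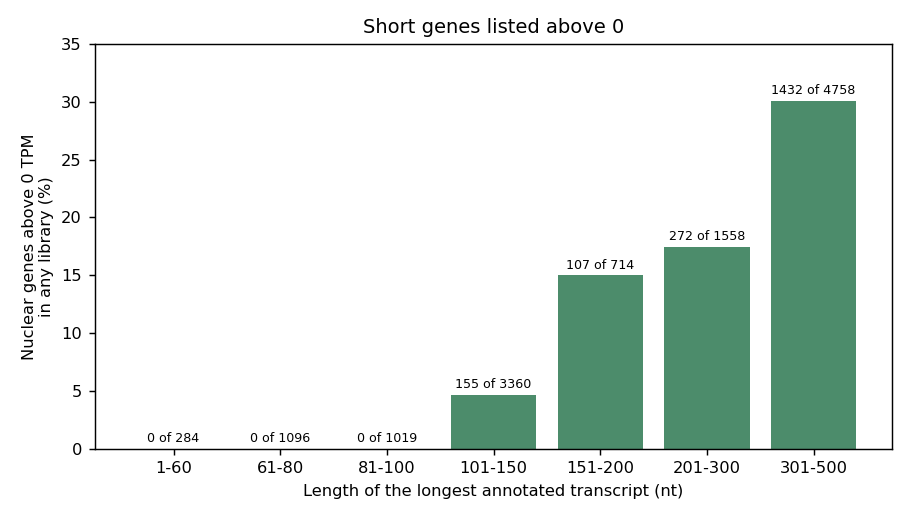
Share of nuclear genes listed above 0 TPM in any of the 7 libraries (%, bars from 0) by length of the longest annotated transcript, with the number of genes above each bar. No gene of up to 100 bases is listed above 0, and all 22 mitochondrial transfer RNA genes, of 59 to 75 bases, fall in this range.

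For several coding genes a sizeable part of the signal was listed under the nuclear copy. Of the TPM of each pair, Gm10925 held 59.6%, 27.5% and 42.8% in MBCs and 21.5%, 42.9%, 34.4% and 31.4% in PCs, although its whole sequence equals that of mt-Atp6. Gm28437 held 24.0% to 60.7% of its pair with mt-Co3, Gm10222 held 15.1% to 59.2% with mt-Nd4l, and Gm28438 held 0% to 54.9% with mt-Nd3. Gm28439, identical to part of mt-Nd4, held only 0.0994% to 4.36% of its pair. For all 5 copies the groups overlapped. Reads from an identical stretch cannot be placed, so the values of these genes are uncertain where they are listed apart from their copies.

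The split differed between groups without overlap for 2 of the 11 copies. No share over all genes is given beside this count, and the splits were not tested. Gm28661 held 26.9%, 19.5% and 19.7% of its pair with mt-Co2, another complex IV subunit, in MBCs and 12.9%, 3.40%, 16.997% and 15.0% in PCs. Gm29216 went the other way, with 4.43%, 5.02% and 7.64% of its pair with mt-Co1 in MBCs and 38.8%, 21.5%, 24.3% and 21.2% in PCs. Gm29216 itself was at 323, 467 and 116 scaled TPM in MBCs and 2652, 792, 1613 and 673 in PCs, higher by 2.24 on the log2 scale (SE 0.60, limma adjusted p = 0.0492). mt-Co1 on its own ran at -0.33 (SE 0.64) and the sum of the pair's TPM at 0.03 (SE 0.65, limma adjusted p = 0.980). TPM are per length, and Gm29216 has 492 bases against 1545 in mt-Co1. Signal listed under the copy thus weighs more in the sum, most of all in PCs, and the sum is not the level of the pair. The call of Gm29216 stood at the threshold and was lost in 13 of 15 alternatives, among them each leave-out of a library but that of MBC replicate 2, with adjusted p-values from 0.0113 to 0.250.

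Merging each copy into its mitochondrial gene narrowed the spread for some genes. The ratio of mt-Atp8 to mt-Atp6, which sit on the same transcript and overlap as shown above, was 0.828, 0.476 and 0.546 in MBCs and 0.387, 0.507, 0.496 and 0.488 in PCs as listed. With Gm10925 merged into mt-Atp6 it was 0.334, 0.345 and 0.312 in MBCs and 0.303, 0.289, 0.326 and 0.335 in PCs. The SD of the log2 ratio fell from 0.42 to 0.07 in MBCs and from 0.18 to 0.10 in PCs, and the groups did not differ beyond their spread either as listed (difference -0.36, exact permutation p = 0.171) or merged (-0.08, exact permutation p = 0.314).

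Across the 4 PC libraries the coefficient of variation fell on merging from 35.2% to 22.3% for mt-Atp6, from 34.9% to 18.1% for mt-Co3 and from 13.6% to 4.54% for mt-Nd3. It rose from 31.8% to 37.8% for mt-Co1 and from 30.7% to 34.7% for mt-Nd4l. The mt-Co1 sum carries the length limit given above. Merged mt-Nd3 was at 182, 171 and 212 scaled TPM in MBCs and 169.6, 158, 154 and 167 in PCs. It was then the 1 of 15 members with every MBC library above every PC library. That share is near the background of 8.68% given above for this direction. Its log2 fold change was -0.21 (SE 0.27, limma adjusted p = 0.685), against 0.15 (SE 0.36) as listed.

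**Figure D5:**
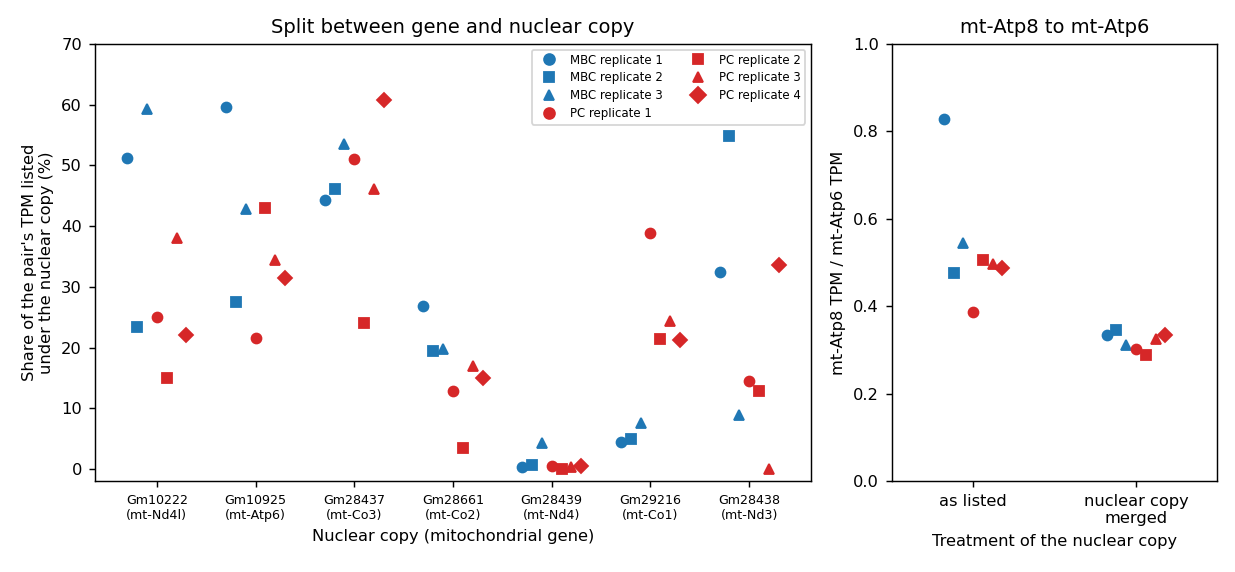
Left, share of the summed TPM of a mitochondrial gene and its nuclear copy that was listed under the copy (%), for 7 copies in 3 MBC (blue) and 4 PC (red) libraries. Right, ratio of mt-Atp8 to mt-Atp6 TPM as listed, from 0.387 to 0.828, and with the copy Gm10925 merged into mt-Atp6, from 0.289 to 0.345.

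The other neighbouring pairs gave no difference past the test. mt-Nd4l to mt-Nd4, both complex I subunits read from the same transcript, stood at 0.311, 0.518 and 0.164 in MBCs and 0.305, 0.280, 0.249 and 0.292 in PCs (log2 difference -0.09, exact permutation p = 0.743). With copies merged it stood at 0.635, 0.672 and 0.384 in MBCs and 0.404, 0.330, 0.400 and 0.373 in PCs (-0.54, exact permutation p = 0.0857, adjusted p = 0.343). MBC replicates 1 and 2 were then above all PC libraries and MBC replicate 3 within them. mt-Nd6 to mt-Nd5, read from opposite strands, stood at 0.433, 0.389 and 0.752 in MBCs and 0.362, 0.658, 0.420 and 0.580 in PCs (-0.03, exact permutation p = 0.914). The smallest p that 3 against 4 libraries allow is 0.0286.

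The nuclear genes that serve the mitochondrial genome mostly did not pass the test with all 7 libraries. In limma on scaled TPM, 0 of 9 transcription genes (polymerase, its factors and terminators), 0 of 11 genome maintenance genes, 0 of 11 ribosomal RNA modification and assembly genes and 0 of 11 translation factor genes were called. The genes of lowest p in these lists were Tfb1m, an rRNA methyltransferase kin to the transcription factor Tfb2m (log2 fold change 1.99, limma adjusted p = 0.114), Rnaseh1, which removes RNA from RNA:DNA hybrids (1.53, adjusted p = 0.248), Mrm2, which methylates the large ribosomal RNA (1.42, adjusted p = 0.162), and Taco1, a translational activator of mt-Co1 (1.63, adjusted p = 0.212). Without MBC replicate 3 the counts called higher were 2 of 9, 1 of 9, 0 of 9 and 3 of 11, in a fit that called 15.1% of all genes higher.

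RNA processing and transfer RNA charging each held 1 called gene, of 21 and 23 tested, a share near the 6.41% of all genes called higher. Rexo2, an oligoribonuclease that clears short RNA in mitochondria, was at 17.7, 2.14 and 36.6 scaled TPM in MBCs and 655, 769, 480 and 593 in PCs. The groups were far apart, by 5.57 on the log2 scale (SE 0.71, limma adjusted p = 0.0011), and the call was kept in all 15 alternatives. Lars2, which charges the mitochondrial leucine transfer RNAs, was at 612, 762 and 687 in MBCs and 2250, 1665, 1496 and 1878 in PCs, with every PC library above every MBC library. The log2 difference was 1.40 (SE 0.31, limma adjusted p = 0.0226), and the call was lost in 10 of 15 alternatives, among them 5 of the 7 that leave out a library (all but MBC replicate 3 and PC replicate 3), with adjusted p-values from 0.0181 to 0.879. Its mean of 1336 scaled TPM compares with at most 10.0 for any of the 17 other mitochondrial synthetase genes, so its level stands far outside that of its family, and how much of it comes from Lars2 messenger RNA was not tested.

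Few of the nuclear partners of the mitochondrial products passed the test, and their summed levels overlapped between groups. The 90 nuclear respiratory chain genes summed to 2470, 3433 and 5969 scaled TPM in MBCs and 5919, 8182, 5220 and 7837 in PCs, with MBC replicate 3 above PC replicates 1 and 3. Of 79 nuclear respiratory chain subunits tested, 71 had a log2 fold change above 0, with a median of 1.28 beside 0.14 over all genes and -0.22 for the mitochondrial genes, and 3 were called higher, below the 6.41% of all genes. These were the complex I subunits Ndufa1 (4.41, SE 1.14, limma adjusted p = 0.0430) and Ndufa13 (2.02, SE 0.53, adjusted p = 0.0462) and the ATP synthase c-ring gene Atp5g1 (1.94, SE 0.40, adjusted p = 0.0160). Atp5g1 was at 89.5, 41.3 and 125 scaled TPM in MBCs and 245, 342, 276 and 352 in PCs. Leaving out a library ended the call of Ndufa1 and of Ndufa13 in 6 of 7 cases each (all but MBC replicate 3), with adjusted p-values over 15 alternatives of 0.0015 to 0.161 and 0.0032 to 0.350, and that of Atp5g1 in 2 of 7 (PC replicates 2 and 4), with 0.0053 to 0.349. Without MBC replicate 3, 37 of 79 were called higher and the median was 1.69, beside 15.1% and 0.21 over all genes in that fit.

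The 78 mitochondrial ribosomal protein genes summed to 585, 1227 and 1502 scaled TPM in MBCs and 1359, 1686, 1211 and 1738 in PCs, with overlap through MBC replicates 2 and 3. Of these, 61 had a log2 fold change above 0 and 0 were called (median 0.81). Mrpl57, of the large subunit, had the lowest p (2.11, limma adjusted p = 0.0685). Without MBC replicate 3, 23 of 78 were called higher (median 1.13), again beside 15.1% of all genes. 13 general mitochondrial genes, such as the import channel gene Tomm40 (1.78, limma adjusted p = 0.147), were all above 0 with 0 called, and 4 of 13 were called higher in that fit. Of 6 regulators of mitochondrial biogenesis, 5 were below 0 and 0 were called, with Ppargc1b, a coactivator of mitochondrial gene programmes, at 2.17, 3.61 and 1.40 scaled TPM in MBCs and 0.739, 0.401, 0.234 and 0.516 in PCs (-1.16, limma adjusted p = 0.134).

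The summed TPM of the mitochondrial coding genes over that of the nuclear respiratory chain genes was 7.49, 7.501 and 0.867 in MBCs and 2.52, 1.22, 2.59 and 1.11 in PCs. For mitochondrial ribosomal RNA over the mitochondrial ribosomal protein genes it was 279.9, 163 and 60.5 in MBCs and 90.1, 71.8, 88.3 and 59.9 in PCs. By both measures MBC replicates 1 and 2 had more mitochondrial relative to nuclear transcript than any PC library, while MBC replicate 3 was the lowest library in the first and next to the lowest in the second.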

How the data were processed

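Total RNA of sorted cells was sequenced in 7 libraries. The authors deposited 1 table of TPM values, rounded to 2 decimals, with each column adding to the same total; their processing notes name STAR 2.5.2a, RSEM 1.3.0, DESeq2 1.18.1 and GRCm38, and the annotation release is not given in the sources used here. Symbols, positions and lengths came from GENCODE M21 of the same build, which named 48349 of 48795 IDs. TPM were divided by median-ratio factors over 9305 genes, and limma 3.58.1 (R 4.3.3, trend) was fitted to log2(scaled TPM + 1) for 11573 genes at 1 TPM or more in at least 3 libraries, with Benjamini-Hochberg adjustment over all of them; fold changes on this scale understate those of low genes. Ratios of members were tested by exact two-sided permutation. Nuclear copies were found with blastn 2.17.0. Merging them, by adding TPM without weighting by length, was chosen after seeing the data. The fits were tested on simulated data. Members and gene lists were chosen with earlier results of these data known. In each nuclear list the called genes were named, and where 0 were called the gene of lowest p. Groups came from the labels. Same-numbered MBC and PC libraries correlated in their deviations at 0.11, -0.04 and -0.08. Libraries with the same title code (MBC and PC replicates 1 and 1, 2 and 3, and 3 and 4) correlated at 0.11, -0.0044 and 0.22. Libraries sharing neither ran from -0.18 to 0.15. The same-code PC library had the highest value for MBC replicates 1 and 3. Neither number nor code was taken as pairs in the main fit, and so few values cannot exclude pairing by code.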

Additional observations from a re-analysis of the deposited data

Results flagged for a closer look

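In 4 of 38 results examined, 1 PC library lay far from the other 3 by the ratio of its gap to the group's range, where chance would give 1.9 at 1 in 20. mt-Atp6 was at 1549 scaled TPM in PC replicate 1, against 779 to 887 in the other PC libraries. The ratio of mt-Atp8 to mt-Atp6 was 0.387 in the same library, against 0.488 to 0.507. This library also listed the smallest share of the mt-Atp6 pair under Gm10925, 21.5%, and with the copy merged its ratio was 0.303 beside 0.289 to 0.335 in the others. mt-Nd6 was at 204.4 scaled TPM in PC replicate 4, against 251 to 260. The ribosomal RNA share without immunoglobulin genes was 14.8% in PC replicate 4, against 17.4% to 17.8%, and that library also had the highest share of nuclear ribosomal RNA among PCs, 15.97%. The part of these values in the results was not tested.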

How the results depend on the processing

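The number of mitochondrial genes called lower in PCs was 0 on scaled TPM, 7 on TPM as deposited, 3 without MBC replicate 3, and 3 with nuclear copies merged and MBC replicate 3 left out. It ran from 0 to 3 when single libraries were left out, and stayed at 0 with a pseudocount of 0.1, no filter, no trend, copies merged, or the first title prefix only. With the replicate number as a block, in a fit that leaves out PC replicate 4, it was also 0. Over all genes 391 were then called higher and 64 lower, against 477 and 114 without PC replicate 4 and without the block. In the main fit of all 7 libraries these counts were 742 and 248, and with the title code as the block 434 and 83. The replicate block fit changed no call of a mitochondrial gene. Of Rexo2, Lars2, Ndufa1, Ndufa13, Atp5g1 and Gm29216 it left the call of Rexo2 and ended the others. Leaving out PC replicate 4 without a block did the same. The difference in share, PC minus MBC, was -19.97 percentage points for all 37 genes and -18.1 for ribosomal RNA, and became -10.95 and -9.89 without immunoglobulin genes and -7.03 and -6.37 without nuclear ribosomal RNA as well; the PC mean for all 37 genes rose from 8.86% to 18.7% and 25.9%, and the MBC mean from 28.8% to 29.6% and 33.0%.

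Uncalled fold changes changed sign in these cases, and the cause was not tested. mt-Co2 was at 0.16 and became -1.17 on TPM as deposited, -0.13 without immunoglobulin genes, -0.22 in the first title prefix, -0.015 with copies merged and -0.57 with copies merged and MBC replicate 3 left out. mt-Atp6, at 0.24, became -1.08, -0.048, -0.19, -0.041 and -0.55 in the same order. mt-Nd3, at 0.15, became -1.17 on TPM as deposited, -0.14 without immunoglobulin genes, -0.21 with copies merged and -0.12 with MBC replicate 3 also left out. mt-Co1 became 0.035 with copies merged, a sum not weighted by length. With the replicate block, and likewise with PC replicate 4 left out and no block, mt-Co3 became 0.037 and mt-Nd4 0.014. The log2 ratio of mt-Nd6 to mt-Nd5 became 0.18 in the first title prefix. Leaving out single libraries gave -1.34 to 0.12 for mt-Nd1, -0.74 to 0.080 for mt-Nd2, -1.16 to 0.14 for mt-Co1, -0.37 to 0.50 for mt-Co2, -0.67 to 0.26 for mt-Atp8, -0.24 to 0.78 for mt-Atp6, -0.50 to 0.23 for mt-Co3, -0.21 to 0.47 for mt-Nd3, -0.93 to 0.36 for mt-Nd4, -1.27 to 0.073 for mt-Nd5, -0.75 to 0.12 for mt-Cytb and -1.45 to 0.66 for mt-Nd4l. The ratio of mt-Nd4l to mt-Nd4 ran from -0.52 to 0.31 and that of mt-Nd6 to mt-Nd5 from -0.22 to 0.26.

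The table holds no counts, so counting error could not be given. Transfer RNAs cannot be judged from it. Genes with an identical nuclear copy are uncertain where they are listed apart from it, and a sum with a much shorter copy is not the level of the pair.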
